A study of Homo sapiens with 15 samples.

Results

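Genes of transforming growth factor beta (TGF-beta) and bone morphogenetic protein (BMP) signaling, 10 in all, were followed across 5 conditions of the EGFR-mutant lung adenocarcinoma line H1975 and its osimertinib-resistant subline H1975–OR. The genes were taken by their symbols: the ligands TGFB1, TGFB2, TGFB3, INHBA and BMP4, the receptors TGFBR1 and TGFBR2, the signal transducer SMAD3, the inhibitory SMAD7 and the target gene ID1. All 10 were found among the 19612 gene symbols of the table, and all 10 passed the filter on low counts in both model fits. The rule used symbols and no threshold on a value, but the list was drawn up with earlier results of these data known.

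TGF-beta, activin and BMP ligands are secreted dimers that bring together type I and type II receptor kinases on the cell surface. TGF-beta and activin receptors phosphorylate SMAD2 and SMAD3, and BMP receptors phosphorylate SMAD1, SMAD5 and SMAD9. The phosphorylated SMADs join SMAD4 and enter the nucleus, where they act on target genes. SMAD6 and SMAD7 feed back on the receptors. In carcinoma cells, TGF-beta is a classical inducer of epithelial–mesenchymal transition (EMT), and ID1 is a classical direct target of the BMP branch.

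Both cell populations carry the EGFR mutations T790M and L858R. H1975 was the parental line, and H1975–OR was its derivative selected by long exposure to 500 nM osimertinib and grown in medium containing the drug, so it is 1 selected population and not a set of independent resistant lines. The groups were H1975 with vehicle, H1975–OR with vehicle, H1975–OR with 100 nM 1,25(OH)2D3 (the active form of vitamin D), H1975–OR with 500 nM osimertinib (an inhibitor of mutant EGFR) and H1975–OR with both agents. Treatment lasted 96 h, with agents added at 0, 48 and 92 h. How long the vehicle-treated H1975–OR cells had been without osimertinib is not given in the sources used here.

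Each group held 3 libraries of total RNA, lettered a, b and c, made from separate passages, and p-values here measure the spread between such passages of 1 line. Library totals ran from 4378030 to 6140120 estimated counts (median 4974785), so 1 count per 1000000 (CPM) corresponded to about 5 estimated counts. Replicate a of the 1,25(OH)2D3 group (Sample 3a) stood apart, with the highest mitochondrial share (1.54% against 0.424% to 1.05% elsewhere) and the lowest mean correlation with its own group (0.912 against 0.935 to 0.965). It was left out of means and tests, as in the study, and its values are given separately. CYP24A1, the vitamin D catabolic enzyme that responds to 1,25(OH)2D3, lay between 3.305 and 9.12 CPM in the 6 H1975–OR libraries without 1,25(OH)2D3 and between 675.6 and 1468 CPM in the 6 with it. DUSP6, a feedback phosphatase of the MAPK pathway that EGFR inhibition lowers, was at 3.882 CPM in replicate a of vehicle-treated H1975–OR, against 18.59 and 27.53 CPM in b and c and 4.09 to 9.19 CPM with osimertinib alone. Sample 3a, the other replicate a without osimertinib, was at 3.494 CPM. The part of this in the values of replicate a was not tested. SPRY4, ETV4 and ETV5, read for the same purpose, averaged 23.43, 21.06 and 91.8 CPM with vehicle in H1975–OR. With osimertinib they averaged 8.379, 17.04 and 84.01 CPM, with overlapping libraries. Neither DUSP6 nor any of these was called for osimertinib against vehicle. The epithelial marker CDH1 fell from 107.6 to 383.1 CPM in H1975 to 5.198 to 9.399 CPM in vehicle-treated H1975–OR (log2 fold change −5.11, SE 0.50, adjusted p = 0.000557, edgeR). Adjusted p-values are Benjamini-Hochberg values over all genes from the quasi-likelihood test of edgeR unless another tool is named, and a gene was called where this value was under 0.05. Of 6 epithelial markers, 4 were lower and 1, KRT18, was higher. Of 4 mesenchymal markers, 3 were tested, and 1 was called higher and 1 lower. From H1975 to vehicle-treated H1975–OR, VIM averaged 2610 and 3671 CPM, ZEB1 3.724 and 30.67, FN1 711.2 and 56.09, and CDH2 0.4399 and 0.3342. Of 5 fibroblast markers, 2 were tested, and 1 was called higher and 1 lower. Of 3 endothelial markers, 2 were tested and 0 were called. The lung lineage factor NKX2-1 averaged 44.78 CPM in H1975 and 56.25 CPM in H1975–OR, whereas the lung differentiation markers NAPSA and SFTPB did not pass the filter on low counts. Of 4 leukocyte markers, CD3E was at 0 in every library, PTPRC and LYZ averaged 0.293 to 1.62 CPM over the groups, and CD68, which also marks lysosomes in other cells, averaged 32.92 CPM in H1975 and 14.43 CPM in vehicle-treated H1975–OR, where it was called lower. In such bulk samples, fewer cells of a type and less RNA per cell cannot be told apart.

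The sequence just before the transcription start is given for 3 members on which the results turn. INHBA is shown as the member with the largest difference between the lines, TGFB2 as one of the members that differed between replicate letters, and SMAD7 as the feedback member. The sequences are the 250 bases before the start, read in the direction of the gene, from RefSeq on GRCh38.p14. Capitals mark CAGAC or its reverse complement GTCTG, the short box that SMAD3 and SMAD4 bind.
INHBA (chr7:41703091-41703340, minus strand, within an intron of a longer INHBA transcript): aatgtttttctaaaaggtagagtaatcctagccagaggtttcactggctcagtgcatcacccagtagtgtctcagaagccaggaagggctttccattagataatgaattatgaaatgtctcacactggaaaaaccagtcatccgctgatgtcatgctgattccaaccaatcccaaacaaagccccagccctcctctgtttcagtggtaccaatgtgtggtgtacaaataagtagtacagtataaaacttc
TGFB2 (chr1:218345086-218345335, plus strand, directly before the gene): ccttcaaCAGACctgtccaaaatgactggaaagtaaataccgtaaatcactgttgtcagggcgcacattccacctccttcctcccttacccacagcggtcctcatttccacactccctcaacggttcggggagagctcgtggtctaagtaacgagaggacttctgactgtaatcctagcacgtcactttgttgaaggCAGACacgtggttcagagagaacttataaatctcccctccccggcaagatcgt
SMAD7 (chr18:48950966-48951215, minus strand, directly before the gene): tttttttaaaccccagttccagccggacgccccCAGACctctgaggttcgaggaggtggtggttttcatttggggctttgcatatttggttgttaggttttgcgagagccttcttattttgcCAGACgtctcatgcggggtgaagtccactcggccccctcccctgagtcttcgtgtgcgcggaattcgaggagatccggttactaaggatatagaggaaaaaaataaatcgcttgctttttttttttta

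CAGAC was present on either strand in the windows of 4 of the 10 members, TGFB2, SMAD7, TGFBR1 and BMP4, and in 38.0% of the 35116 windows of the table. The BMP4 window was that of a start 1775 bases from the start of its canonical GENCODE transcript. The palindromic SMAD element GTCTAGAC was in none of the 10 windows and in 0.182% of all windows. The BMP-type SMAD box GGCGCC was in the windows of BMP4 and SMAD3 and in 16.4% of all windows. The AP-1 element TGANTCA (6.57% of all windows) and the form AGGTCA of the vitamin D receptor half-site (12.1%) were in no member's window. The form AGTTCA (8.8%) was in that of TGFB3. Other forms of this half-site, such as GGTTCA in the printed TGFB2 window, were not searched. These are matches of letters in 250 bases, and nothing about binding was measured.

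Per kilobase of the canonical transcript, ID1 was the most abundant member in every group, at 160 to 227 CPM per kb. The receptor TGFBR2 lay at 19.1 to 42.8 and TGFBR1 at 20.2 to 29.8 CPM per kb. Among the TGF-beta ligands, TGFB2 lay at 14.7 to 31.5 CPM per kb in the 5 groups. It was below both receptors in the 3 groups without osimertinib, between them with osimertinib alone (24.8) and above both with both agents (31.5), and in each group it was above TGFB1 (1.89 to 3.88) and TGFB3 (1.93 to 3.30). INHBA had the widest range over the groups as a ratio, from 0.545 CPM per kb in H1975 to 12.6 in H1975–OR with 1,25(OH)2D3.

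**Figure D1:**
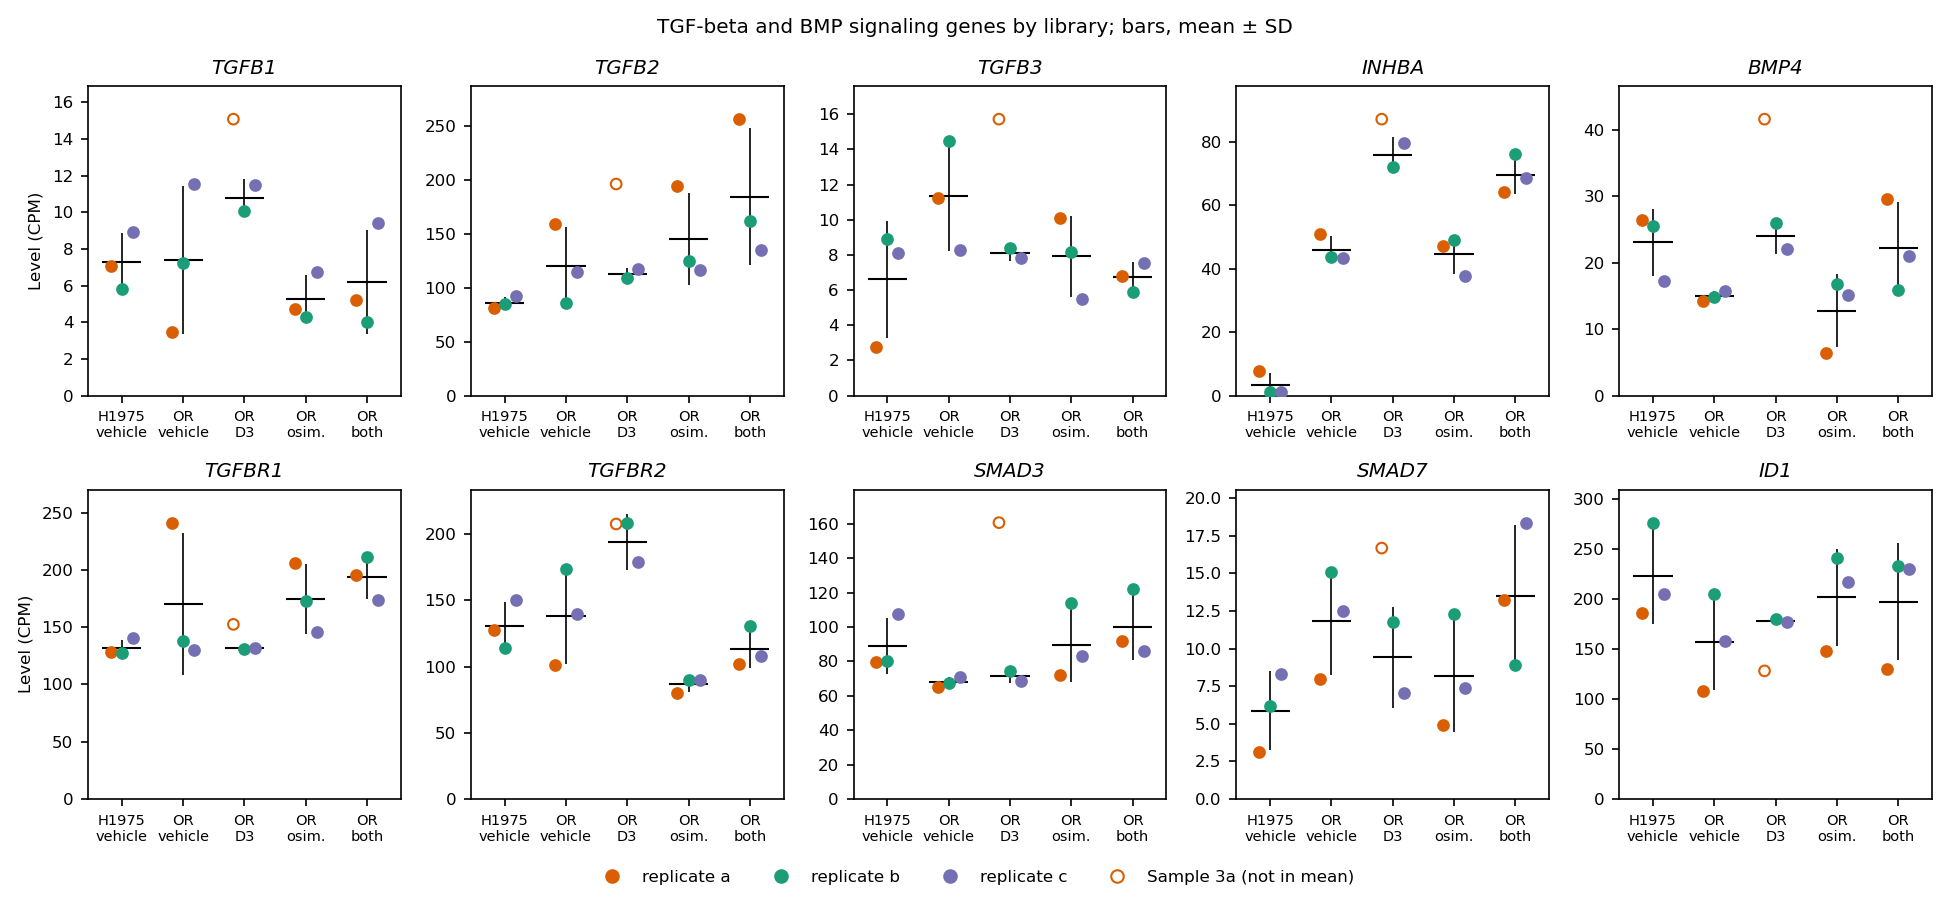
Levels of the 10 members in each of the 15 libraries (vertical axes, CPM, each starting at 0; points coloured by replicate letter), with the mean and SD of each group as black lines and Sample 3a as an open circle outside them. INHBA separated H1975 from all H1975–OR groups, while the groups overlapped for most other members.

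The first comparison set vehicle-treated H1975–OR against vehicle-treated H1975, the question being which genes differ in the resistant line. One member of the 10, INHBA, passed the test, with a higher level in H1975–OR. Over all 12513 genes tested, 20.1% were called in either direction and 9.89% were called higher. The median log2 fold change was 0.24 over the members and 0.006 over all genes. Libraries of the 2 groups did not overlap for 3 members, INHBA above and BMP4 and SMAD3 below, and for 39.2% of all genes. DESeq2 also called 1 member, INHBA, against 24.3% of all genes.

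INHBA (chr7:41667168-41705834) encodes the beta A subunit of activin A, a ligand that signals through SMAD2 and SMAD3. It had 45, 6 and 5 estimated counts in the H1975 libraries and 250, 212 and 225 in the vehicle-treated H1975–OR libraries. As levels, these were 7.785, 1.092 and 1.016 CPM in H1975 and 51.08, 43.79 and 43.32 CPM in H1975–OR. Every H1975–OR library was above every H1975 library, and replicate a of H1975 stood above the other two. The log2 fold change was 3.77 (SE 0.60, 95% interval 2.41 to 5.13, 13.7-fold, n = 3 and 3, adjusted p = 0.00412, edgeR's quasi-likelihood test). Without replicate a of H1975 it was 5.41. That library also had the lowest CDH1 of the 3 H1975 libraries (107.6 CPM against 238.5 and 383.1), and its part in the result was not tested.

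The 3 TGF-beta ligands bind the same pair of receptors. TGFB2 (chr1:218345336-218444619) was at 80.96, 84.66 and 92.27 CPM in H1975 and at 159, 85.92 and 114.6 CPM in H1975–OR. Replicate b of H1975–OR lay within the H1975 range, and the log2 fold change of 0.49 (SE 0.20) did not pass the test (adjusted p = 0.122, edgeR). Without that library it was 0.69 with an adjusted p of 0.0384. TGFB1 (chr19:41301587-41353922) ran from 5.826 to 8.942 CPM in H1975 and from 3.474 to 11.55 CPM in H1975–OR, with full overlap. TGFB3 (chr14:75958097-75983011) ran from 2.768 to 8.921 CPM in H1975 and from 8.279 to 14.46 CPM in H1975–OR, also with overlap. TGFB1 overlaps HNRNPUL1, CCDC97 and TMEM91 on the opposite strand, and TGFB3 overlaps IFT43, so reads of these partners could be shared if strand was not used in counting, which is not given in the sources used here.

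BMP4 (chr14:53949736-53958761), a ligand of the BMP receptors, was at 26.47, 25.49 and 17.28 CPM in H1975 and at 14.3, 14.87 and 15.79 CPM in H1975–OR. All 3 H1975–OR libraries were below all 3 H1975 libraries, though replicate c of H1975 was close to them. On the log2 scale the difference was −0.61 (SE 0.22, adjusted p = 0.0859, edgeR), and −0.80 with an adjusted p of 0.0392 without that replicate.

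Neither receptor passed the test. TGFBR1 (chr9:99104038-99154192), the type I receptor kinase, was at 127.1 to 140.2 CPM in H1975 and at 241.3, 138.2 and 130.3 CPM in H1975–OR, where only replicate a was high. TGFBR2 (chr3:30606601-30694142), the type II receptor that binds the ligand first, was at 114.3 to 150.6 CPM in H1975 and at 101.1 to 173.5 CPM in H1975–OR. The intervals of the log2 fold change ran from −0.12 to 0.88 for TGFBR1 and from −0.35 to 0.54 for TGFBR2, so changes of either sign within those limits were not excluded.

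SMAD3 (chr15:67063763-67195173), the transducer of TGF-beta and activin signals, was at 79.41, 80.11 and 107.7 CPM in H1975 and at 64.98, 67.54 and 70.85 CPM in H1975–OR. The groups did not overlap, but the log2 fold change of −0.38 (SE 0.15) did not pass the test (adjusted p = 0.101, edgeR). SMAD7 (chr18:48919853-48950965), which blocks the type I receptors and is itself a target of the pathway, was low in both lines, at 3.114, 6.19 and 8.333 CPM in H1975 and at 7.969, 15.08 and 12.51 CPM in H1975–OR. One library of each group lay within the other's range, and the log2 fold change was 1.03 (SE 0.44, adjusted p = 0.133, edgeR).

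ID1 (chr20:31605283-31606515), a helix-loop-helix protein that holds back differentiation factors, was at 186.7, 276.7 and 205.7 CPM in H1975 and at 108.3, 205.5 and 158.1 CPM in H1975–OR. The groups overlapped, with replicate b of H1975–OR within the H1975 range. The log2 fold change was −0.49 (SE 0.23, adjusted p = 0.17, edgeR).

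**Figure D2:**
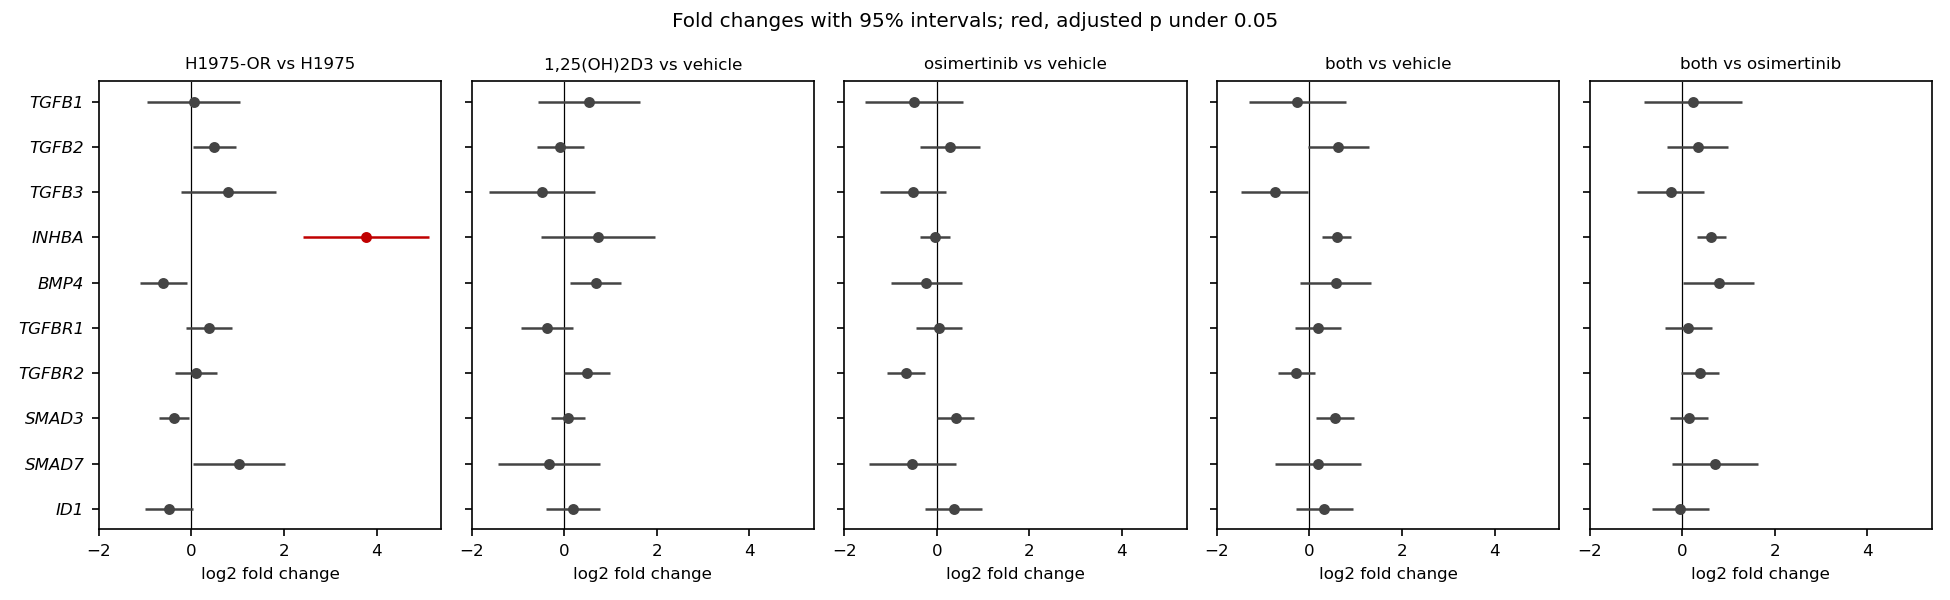
Log2 fold changes of the 10 members (horizontal axes) with their 95% intervals in 5 comparisons, with members past an adjusted p of 0.05 in red. Values are from edgeR's quasi-likelihood fits without the replicate letter as a term. INHBA in H1975–OR against H1975 is the one red point, at 3.77.

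To place the members in their pathway, 93 other genes of TGF-beta and BMP signaling were read from the same test. Of these, 74 passed the filter on low counts, and their median log2 fold change was −0.05. In H1975–OR 13 were called higher and 13 lower, which is 35.1% against 20.1% of all genes. The list was drawn up with earlier results of these data known, so the 2 shares are a description only. Among the other ligands, GDF5 (a BMP-type ligand) rose by 3.10 on the log2 scale from 0.473 CPM, and GDF11 (an activin-type ligand) fell by 1.21. Of the 9 latency and activation genes tested, 1 was higher and 2 were lower. THBS1, an activator of latent TGF-beta, rose by 0.92. LTBP1, which tethers latent TGF-beta to the matrix, fell by 2.24. ITGB6, a subunit of the integrin that activates latent TGF-beta on epithelial cells, was at 12.63, 49.7 and 65.65 CPM in H1975 (mean 42.66). It was at 0 counts in all 12 H1975–OR libraries. Against a floor of 3 counts per library, vehicle-treated H1975–OR was at least 70.7-fold below the H1975 mean, a bound that replicate a of H1975 alone would not reach.

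Of the 10 other receptors tested, BMPR1A, a type I BMP receptor, rose by 0.74 (adjusted p = 0.0125) and ACVR1B, the main type I receptor of activin A, fell by 1.30 (adjusted p = 0.00547, both edgeR), from a mean of 39.21 to 15.72 CPM. ACVR1B was thus lower in the line in which the activin subunit INHBA was higher. All 6 other SMAD genes had higher values in H1975–OR, and 3 of them passed the test: the inhibitory SMAD6 (1.77, SE 0.25, adjusted p = 0.00247), the BMP transducer SMAD9 (1.55) and the common partner SMAD4 (0.53). Of the 16 inhibitors tested, 2 rose and 2 fell. BAMBI, a decoy type I receptor, rose by 1.28, and NOG, which binds BMPs outside the cell, rose by 1.73. PMEPA1, a TGF-beta target that sequesters SMAD2 and SMAD3, fell by 1.24, and the ubiquitin ligase SMURF1 fell by 0.94.

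Of the 25 target genes tested, 5 were higher and 7 lower, so the targets did not move one way. CTGF (now also named CCN2, 2.80, SE 0.20) and NEDD9 (2.37, SE 0.21) rose, and the matrix genes FN1 (−3.65, SE 0.25) and TGFBI (−1.03, SE 0.14) fell, the 4 with the smallest p among the called targets. FN1 averaged 711.2 CPM in H1975 and 56.09 CPM in H1975–OR. Many of these genes answer to other pathways too, and no SMAD activity was measured.

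**Figure D3:**
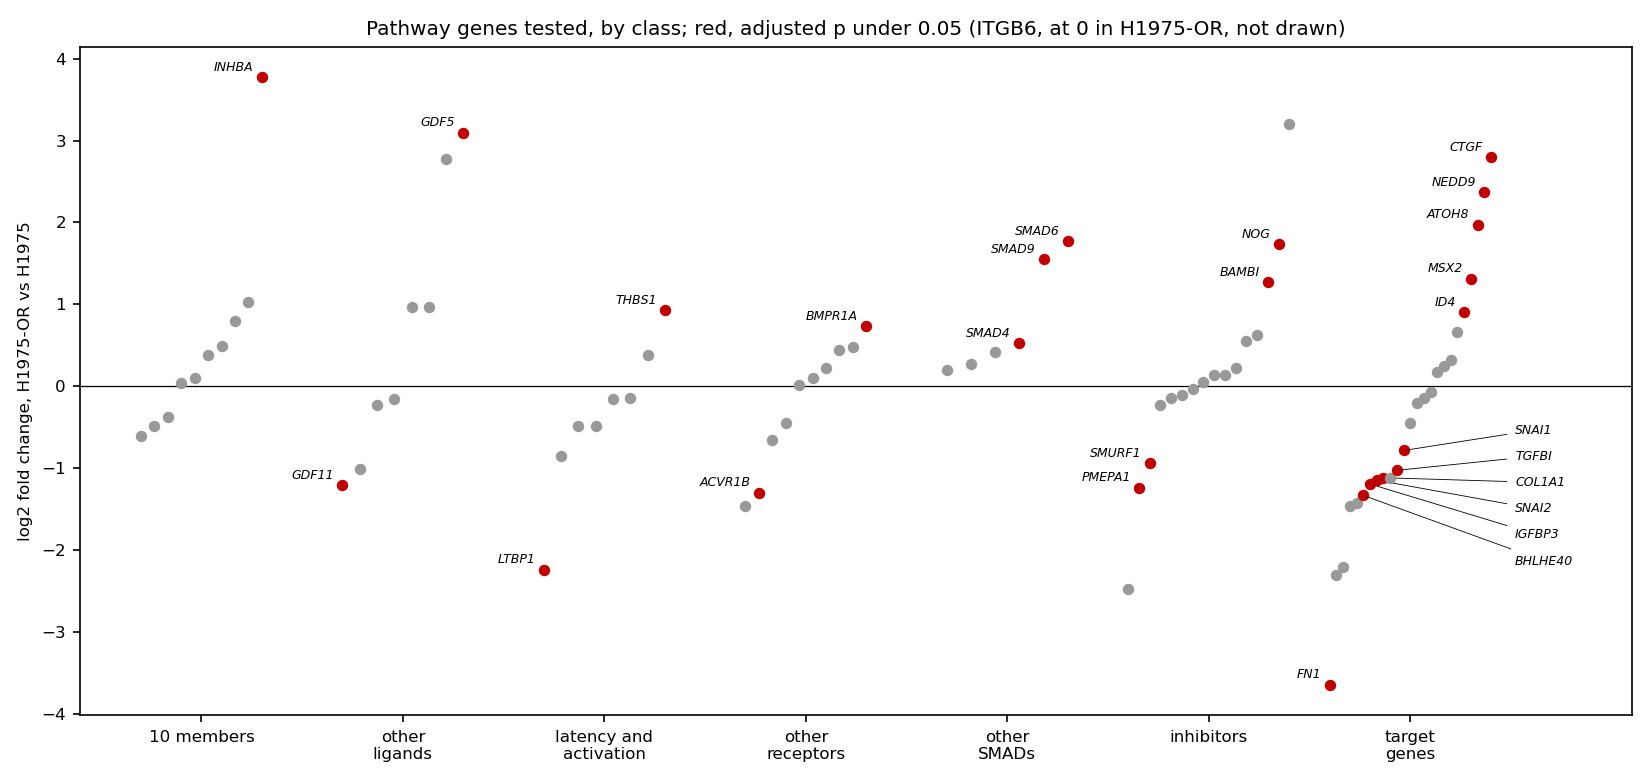
Log2 fold changes between vehicle-treated H1975–OR and H1975 (vertical axis) of the members and of the other pathway genes tested, by class, with genes past an adjusted p of 0.05 in red and named. All 6 other SMADs lie above 0, whereas target genes lie on both sides, from FN1 at −3.65 to CTGF at 2.80.

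The second question was what 1,25(OH)2D3 changed in H1975–OR. With edgeR, 0 of the 10 members were called, against 0.152% of all 12513 genes, and DESeq2 also called 0, against 0.991% of all genes. One member, BMP4, had an unadjusted p under 0.05 in this fit without a block. In a fit of the 11 H1975–OR libraries with the replicate letter as a block, other members did, beside 1141 of 12503 genes. These were INHBA (unadjusted p = 0.00105) and TGFBR2 (0.0141), while BMP4 was at 0.162 (all edgeR). The libraries of the groups did not overlap for 3 members, INHBA, BMP4 and TGFBR2, all above vehicle, and for 25.4% of all genes, in a comparison of 2 libraries against 3. The median log2 fold change of the members was 0.13, beside −0.007 over all genes.

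INHBA was at 72.08 and 79.81 CPM with 1,25(OH)2D3, against 43.32 to 51.08 CPM with vehicle, and at 87.19 CPM in Sample 3a. All were above the vehicle libraries. The log2 fold change was 0.72 (SE 0.54, adjusted p = 0.843, edgeR), in a fit that shared the wide spread of INHBA in H1975. In the 11 H1975–OR libraries alone it was 0.72 with an adjusted p of 0.219. With the replicate block there it was 0.75 (SE 0.15, adjusted p = 0.121, edgeR).

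BMP4 was at 25.96 and 22.09 CPM with 1,25(OH)2D3, at 41.61 CPM in Sample 3a and at 14.3 to 15.79 CPM with vehicle. Its log2 fold change was 0.68 (SE 0.24, unadjusted p = 0.0218 and adjusted p = 0.558, edgeR). TGFBR2 was at 208.7 and 178.9 CPM with 1,25(OH)2D3 and at 207.7 CPM in Sample 3a, above the vehicle libraries at 101.1, 173.5 and 139.4 CPM. Its log2 fold change was 0.49 (SE 0.22, adjusted p = 0.688, edgeR) without the block and 0.41 (SE 0.13, adjusted p = 0.375, edgeR) with it.

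Each of the other 7 members had overlapping libraries in this comparison. SMAD3 was at 74.66 and 68.86 CPM in the 2 libraries tested but at 160.6 CPM in Sample 3a, the largest ratio of that library to its group mean among the members. Of the other pathway genes, 2 of 74 were called, both higher, beside 0.152% of all genes. LTBP2, a latent TGF-beta binding protein, rose by 1.62 (SE 0.22, adjusted p = 0.0337), and COL1A1, a collagen gene, rose by 3.72 (SE 0.33, adjusted p = 0.00741, both edgeR). In the fit over the 11 H1975–OR libraries with the replicate letter as a block, 5 of 73 were called, FN1 and IGFBP3 joining them as higher and CTGF as lower, against 0.384% of all genes, and again 0 members. In Sample 3a, LTBP2, COL1A1, FN1 and IGFBP3 were also above every vehicle library, but CTGF was at 380.1 CPM, above the vehicle libraries (216.2 to 293.6 CPM), while replicates b and c were at 101.5 and 88.53 CPM. With Sample 3a kept in the blocked fit, the log2 fold change of CTGF was −0.63 (SE 0.45, adjusted p = 0.599, edgeR), against −1.50 without it, and the other 4 were called.

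The third comparison set osimertinib against vehicle in H1975–OR. None of the 10 members was called by edgeR (0, against 0.048% of 12503 genes) or by DESeq2 (0, against 0.952%), and 1, TGFBR2, had an unadjusted p under 0.05. With the replicate block, 0 members were called against 0.28% of all genes. Those with an unadjusted p under 0.05 were then TGFBR2 (0.000527), ID1 (0.00275), SMAD3 (0.0217) and TGFB2 (0.0481, all edgeR), beside 1712 of 12503 genes. The libraries did not overlap for 2 members and for 12.8% of all genes.

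TGFBR2 was at 80.18, 89.77 and 89.66 CPM with osimertinib, below all 3 vehicle libraries (101.1, 173.5 and 139.4 CPM). The osimertinib libraries were close together, and the vehicle libraries were spread. The log2 fold change was −0.67 (SE 0.18, 95% interval −1.08 to −0.26, unadjusted p = 0.00433 and adjusted p = 0.386, edgeR), with an adjusted p of 0.0793 under the replicate block.

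SMAD3 lay the other way, at 71.82, 113.9 and 83.33 CPM with osimertinib against 64.98 to 70.85 CPM with vehicle. Replicate a was only just above the vehicle range. Its log2 fold change was 0.41 (SE 0.18, adjusted p = 0.667, edgeR). INHBA was at 47.12, 49.08 and 37.58 CPM with osimertinib, around the vehicle values, and the interval of its log2 fold change ran from −0.36 to 0.28. ID1 was at 147.8, 240.9 and 217.7 CPM with osimertinib, higher than with vehicle for each letter, but the groups overlapped. Its log2 fold change was 0.37 (SE 0.28, adjusted p = 0.863, edgeR) without the block and 0.38 (SE 0.09, adjusted p = 0.131, edgeR) with it. No other pathway gene of 73 was called without the block, beside 0.048% of all genes. With it, 1 was, ID2, a relative of ID1 (0.86, SE 0.12, adjusted p = 0.0403, edgeR), beside 0.28% of all genes.

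The combination was compared with vehicle and with osimertinib alone. All comparisons with vehicle share the same 3 vehicle libraries, so their values are given side by side. Against vehicle, edgeR called 0 of the 10 members, against 0.496% of all genes. DESeq2 called 1, INHBA, against 2.91% of all genes, and 3 members had an unadjusted p under 0.05. With the replicate block, 1 member, TGFB2, was called, against 3.69% of all genes. Those with an unadjusted p under 0.05 were then TGFB2 (0.000964), INHBA (0.00205), SMAD3 (0.00387), ID1 (0.00707) and TGFB3 (0.0468, all edgeR), beside 2525 of 12503 genes. Libraries did not overlap for 4 members, INHBA, BMP4 and SMAD3 above and TGFB3 below, and for 16.3% of all genes.

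INHBA was at 64.28, 76.05 and 68.55 CPM with both agents, above every library with vehicle or osimertinib alone. Against vehicle its log2 fold change was 0.59 (SE 0.14, unadjusted p = 0.0019, adjusted p = 0.135, edgeR; adjusted p = 0.0172 in DESeq2 and 0.0526 under the block). Against osimertinib alone it was 0.63 (SE 0.14, unadjusted p = 0.00119, adjusted p = 0.376, edgeR; adjusted p = 0.0254 in DESeq2). By letter, INHBA was higher with 1,25(OH)2D3 than with vehicle by 0.69 in b and 0.85 in c on the log2 scale. Sample 3a, which is outside the tests, was higher than replicate a of vehicle by 0.75. With both agents INHBA was higher than with osimertinib alone by 0.43 to 0.83. The share of all genes with the same sign in every letter was not computed, so these values are a description only. The effects of 1,25(OH)2D3 with and without osimertinib differed by −0.09 (95% interval −0.56 to 0.38).

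TGFB2 was at 256.5, 161.7 and 135.5 CPM with both agents, against 159, 85.92 and 114.6 CPM with vehicle. The level was higher for each letter, but the groups overlapped. The log2 fold change was 0.62 (SE 0.30, adjusted p = 0.431, edgeR) without the block and 0.61 (SE 0.12, adjusted p = 0.0371, edgeR) with it.

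SMAD3 was at 92.12, 121.8 and 85.75 CPM with both agents, above the vehicle libraries (0.55, SE 0.18, adjusted p = 0.253, edgeR). TGFB3 was at 6.809, 5.868 and 7.538 CPM, below vehicle libraries at 11.24, 14.46 and 8.279 CPM (−0.75, SE 0.32, adjusted p = 0.377, edgeR). BMP4 was at 29.64, 15.96 and 20.97 CPM, just above the vehicle libraries in replicate b (0.56, SE 0.34, adjusted p = 0.562, edgeR). These 3 did not pass the test.

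Against osimertinib alone, edgeR called 0 of the 10 members, against 0.096% of all genes. DESeq2 called 1, INHBA, against 0.528% of all genes, and 2 members had an unadjusted p under 0.05. The block also called 0 members, against 0.264% of all genes. Under it, INHBA (0.00132), TGFBR2 (0.0122) and TGFB2 (0.0267, all edgeR) had an unadjusted p under 0.05, beside 1050 of 12503 genes. The libraries did not overlap for INHBA and TGFBR2, both above osimertinib alone, and for 7.93% of all genes. TGFBR2 was at 102.3, 130.7 and 107.9 CPM with both agents (0.38, SE 0.18, unadjusted p = 0.0628, adjusted p = 1, edgeR). In these libraries TGFBR2 was lowest with osimertinib, intermediate with both agents or vehicle, whose ranges overlapped, and highest with 1,25(OH)2D3 alone. This order is a description, since none of the TGFBR2 differences tested between these groups passed. The 2 libraries with 1,25(OH)2D3 alone were not directly compared with osimertinib or both agents. BMP4 was higher with both agents in 2 of 3 letters (0.79, SE 0.35, unadjusted p = 0.0439, adjusted p = 1, edgeR).

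The effect of 1,25(OH)2D3 was not shown to depend on osimertinib for any member. The interaction test called 0 of 10 with edgeR, with and without the replicate block (0 of all genes in both), and 0 with DESeq2 (0.088% of all genes), and 0 members had an unadjusted p under 0.05. The smallest unadjusted p was that of SMAD7 (a difference of effects of 1.04, SE 0.63, unadjusted p of 0.13 and adjusted p of 1, edgeR). SMAD7 stayed between 4.94 and 18.37 CPM in all H1975–OR libraries. For TGFBR2 the difference of effects was −0.11 (95% interval −0.72 to 0.50).

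Among the other pathway genes, 3 of 73 were called higher with both agents than with vehicle, beside 0.384% of all genes called higher. PMEPA1 rose by 1.37 (SE 0.24, adjusted p = 0.0398), COL1A1 by 3.44 (SE 0.36, adjusted p = 0.00483) and FN1 by 1.46 (SE 0.27, adjusted p = 0.0485, all edgeR). PMEPA1 and FN1 were among the genes that were lower in vehicle-treated H1975–OR than in H1975, and with both agents they averaged 102.4 and 155.1 CPM, against 94.18 and 711.2 CPM in H1975. Under the block, 10 of 73 were called higher, beside 2.26% of all genes, and 1 lower, TGFBI (−0.54), beside 1.42%. SMAD6 (0.80), ID2 (0.97), JUNB (1.02), TGIF1 (0.67) and FSTL3 (0.53) were among the higher ones. Against osimertinib alone, 1 was called, COL1A1 (2.68, SE 0.34, adjusted p = 0.0256, edgeR), beside 0.096% of all genes. Under the block 3 were called, with JUNB and IGFBP3, beside 0.264% of all genes.

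In H1975–OR, TGFB2 and ID1 differed between replicate a and the other letters, as did many other genes. TGFB2 was highest in replicate a in all 4 H1975–OR groups, at 159, 196.3, 194.4 and 256.5 CPM with vehicle, 1,25(OH)2D3, osimertinib and both agents, while replicates b and c ran from 85.92 to 161.7 CPM. ID1 was lowest in replicate a in all 4 groups, at 108.3 to 147.8 CPM, against 158.1 to 240.9 CPM in b and c. In a test of letter a against b and c in the 11 libraries without Sample 3a, with treatment as a term, TGFB2 was higher by 0.72 (SE 0.10, adjusted p = 0.00291, edgeR) and ID1 lower by 0.73 (SE 0.09, adjusted p = 0.00239, edgeR). These were the 2 members called, against 12.4% of all genes, in a test chosen after the data were seen. In H1975 TGFB2 was not higher in replicate a (80.96 CPM against 84.66 and 92.27), and ID1 was again lowest there, at 186.7 CPM.

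**Figure D4:**
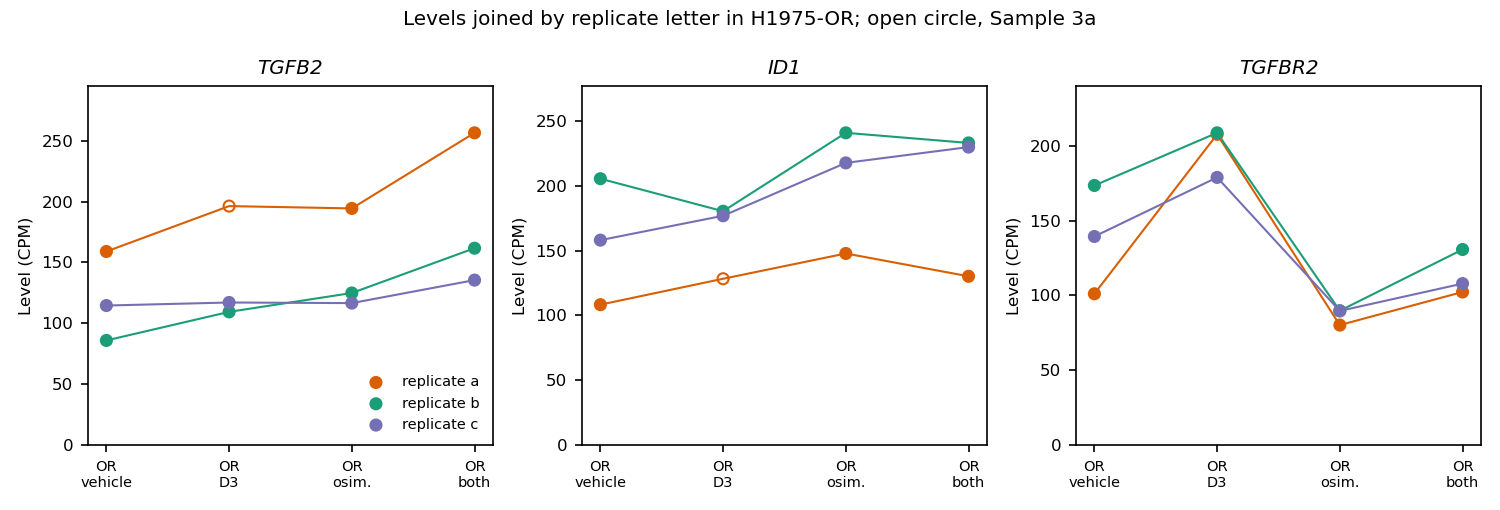
Levels of TGFB2, ID1 and TGFBR2 (vertical axes, CPM, from 0) in the 4 H1975–OR groups, with libraries of the same replicate letter joined and Sample 3a as an open circle. The line of replicate a runs above the others for TGFB2 and below them for ID1, whereas all 3 lines fall for TGFBR2 with osimertinib, to 80.18 to 89.77 CPM.

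INHBA was the only member that edgeR called in the main fits, which held no replicate block. With the block, TGFB2 was also called for both agents against vehicle. The likeness of INHBA to other genes was described over the 14 libraries without Sample 3a. Of 12818 genes, those with the highest Pearson correlation on the log2(CPM + 2) scale were SLC26A2 (0.977), a sulfate transporter, COL8A1 (0.977), a short-chain collagen, and ABCA5 (0.976), a lipid transporter. The 3 H1975 libraries are far from the rest on this scale, so the correlations largely carry the difference between the lines.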

How the data were processed

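RNA of 15 libraries (5 groups of 3) was sequenced as stranded, ribosome-depleted total RNA. The authors quantified reads with Kallisto and summed transcripts to genes with tximport, and deposited estimated counts per gene symbol. The submitters' processing notes name CASAVA 1.8.2, STAR 2.5.2b, kallisto 0.43.0 and GRCh38, and the strand setting is not given in the sources used here. The deposited expected counts were rounded to whole numbers. Estimated counts carry errors of read assignment that whole counts do not.

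Differences were tested with edgeR 4.0.16 (R 4.3.3): filterByExpr by group (minimum count 10, minimum total 15), TMM factors, glmQLFit and glmQLFTest, Benjamini-Hochberg adjustment over all genes and a threshold of 0.05. H1975–OR against H1975 and 1,25(OH)2D3 against vehicle came from 1 fit of 8 libraries, the other comparisons from 1 fit of 11 H1975–OR libraries. Sample 3a was left out. Neither fit held the replicate letter, so SEs and p-values take no account of pairing by letter unless the block is named. SE is the log2 fold change divided by the square root of F, and intervals are 95% t intervals on the fit's degrees of freedom. Levels are CPM with TMM factors over all 15 libraries. DESeq2 1.42.0 was an alternative. The test was tried on simulated data. No 2 libraries held identical values (0 pairs).

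The replicate letter was checked as a pairing. Deviations from group means correlated between same-letter libraries by 0.192 to 0.34 (vehicle and 1,25(OH)2D3), 0.124 to 0.31 (vehicle and osimertinib), 0.118 to 0.341 (vehicle and both) and 0.258 to 0.464 (osimertinib and both). The letters were therefore taken to pair the samples of these comparisons. Blocked values are given where they changed a call, a count of calls or the members with an unadjusted p under 0.05. Between 1,25(OH)2D3 and osimertinib or both, which were not directly compared, replicate b did not follow (−0.014 and 0.026). Between vehicle-treated H1975 and H1975–OR the correlations were −0.03 to 0.022 (−0.123 to 0.104 over all same-letter pairs of H1975 with H1975–OR), and letters were not taken as pairs there.

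The named genes are the 10 members, up to 4 called genes per pathway class with the smallest p, and the 3 genes most like each member called without the block. Genes labelled only in the plot of pathway classes, or called only under the block, are outside that rule and were chosen after their values were seen. The members and lists were chosen with earlier results of these data known. Coordinates are from GENCODE on GRCh38 and promoter sequences from RefSeq on GRCh38.p14, matched by symbol for 10 of 10 members.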

Additional observations from a re-analysis of the deposited data

Results flagged for a closer look

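Sample 3a, the replicate a of 1,25(OH)2D3 that is outside the tests, held 8 of the 10 members above every vehicle-treated H1975–OR library, and 5 of them above every other library. Over the 12503 genes of the H1975–OR fit, 33.9% lay above every vehicle library in Sample 3a and 16.1% above every other library. These are values of a sample that the comparisons do not use. TGFB1 was at 15.09 CPM there (highest vehicle library 11.55), TGFB2 at 196.3 CPM (159), TGFB3 at 15.72 CPM (14.46) and INHBA at 87.19 CPM (51.08). BMP4 was at 41.61 CPM (15.79), TGFBR2 at 207.7 CPM (173.5), SMAD3 at 160.6 CPM (70.85) and SMAD7 at 16.68 CPM (15.08). The same library had the highest mitochondrial share, 1.54%, and its part in these levels was not tested. With Sample 3a kept in, 0 members were called for 1,25(OH)2D3 against vehicle.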

How the results depend on the processing

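The other settings were run on the 10 members. Apart from the replicate block and Sample 3a kept in, they were not run on the other pathway genes. For 22 of the members' fold changes that the text gives, 392 of 395 values under other settings kept their direction. The 3 that turned were those of TGFBR2 for the difference of 1,25(OH)2D3 effects: 0.068 without replicate a of vehicle, 0.006 without replicate b of 1,25(OH)2D3 and 0.094 with letters b and c alone, each with an adjusted p of 1 (range over single libraries left out, −0.303 to 0.068). Of 703 values for the other 38 fold changes of the same 10 members, 43 turned, none with an adjusted p under 0.564. INHBA in H1975–OR against H1975 ran from 3.34 to 5.41 with an adjusted p of at most 0.0165 in all 15 settings that could test it. Demanding at least 10 counts in every library left 0 members called, since INHBA is below that in 2 H1975 libraries. In that comparison, leaving out 1 library gave 1 to 2 members called, with BMP4 added without replicate c of H1975 and TGFB2 without replicate b of vehicle-treated H1975–OR. The replicate block, with letters that did not pair these samples, gave 2 (ID1 added, −0.52, adjusted p = 0.0472). For both agents against vehicle, DESeq2 called 1 member (INHBA) and the replicate block 1 (TGFB2). For both agents against osimertinib, DESeq2 called 1 (INHBA). The cause of these shifts was not tested. The block changed no other call of a member. Over all genes it moved the calls from 6 to 35 for osimertinib, from 62 to 461 for both agents against vehicle and from 12 to 33 for both against osimertinib, and in the 11 H1975–OR libraries it called 48 for 1,25(OH)2D3 against 19 in the fit given in the text. Depth limits the INHBA level in H1975, which rests on 6 and 5 estimated counts in 2 of 3 libraries. With Sample 3a kept in the blocked fit, 4 of the 5 pathway genes called for 1,25(OH)2D3 passed, CTGF being the exception.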
